A study of Mus musculus with 9 samples.

Results

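Alcohol dehydrogenases (Adh) and aldehyde dehydrogenases (Aldh) were followed in mouse liver through every array probe that carried the name of 1 of 10 genes: Adh1, Adh4, Adh5, Aldh1a1, Aldh1a7, Aldh1b1, Aldh2, Aldh3a2, Aldh8a1 and Aldh9a1. These 10 genes, of 37074 gene names on the array, were selected on the signals of these same arrays, with their differences from AAV-V known, so those differences are given as descriptions and without p-values. They had 20 probes of 60 bases. Livers of male mice came from 3 groups of 3 arrays each, labelled with an age of 12 months. AAV-V mice had received an adeno-associated virus with an empty vector and a normal diet. AAV-GP73 mice had received the virus carrying GP73, a Golgi protein that the gene Golm1 encodes, and a normal diet. AAV-V HFD mice had received the empty vector virus and a high fat diet. The virus was described as hepatocyte-specific and was given by tail vein, and all 3 groups carried it. Whether an array held RNA from a single mouse or from a pool is not given in the sources used here, so the spread between arrays may be partly technical.

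The liver clears alcohols in a pair of oxidation steps that both hand electrons to NAD. Adh enzymes turn an alcohol such as ethanol or retinol into its aldehyde, and Aldh enzymes turn the aldehyde into an acid such as acetate or retinoic acid. Individual Aldh enzymes also handle aldehydes that arise from fatty acids, amino acids and carnitine synthesis, and hepatocytes are the main site of most of these reactions.

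Each value below is a scaled log2 signal, on which a step of 1 is a factor of 2. A probe was called detected on an array where the scanner software marked its signal as well above background. The AAV-V arrays were dimmer: the middle array had 10.3% of spots detected, against 16.0% to 18.4% on AAV-GP73 arrays and 13.8% to 16.7% on AAV-V HFD arrays. After scaling, the lowest detected signal averaged 4.04 on AAV-V arrays, 2.16 on AAV-GP73 arrays and 2.22 on AAV-V HFD arrays, so a gene not detected in AAV-V has an upper bound there and no measured level. By their barcodes, AAV-V and AAV-GP73 arrays shared slide 1 and AAV-V HFD arrays were on slide 2, with another scan date. A second, unlabelled barcode field was 1 on AAV-V arrays and 2 on AAV-GP73 arrays. Slide and scan date therefore cannot be told apart from diet, nor that field from GP73. All 10 hepatocyte markers (Alb, Ttr, Apoa1, Apoa2, Apoc3, Apob, Tat, Cps1, Serpina1c and Fgb) passed the detection filter, and 9 of them were detected on all 9 arrays. Their summed scaled signal, in linear units, ran from 21866 to 27392 in AAV-V, from 17832 to 23074 in AAV-GP73 and from 8714 to 18545 in AAV-V HFD. Summed erythroid signal ran from 403 to 1366 in AAV-V, from 3369 to 17080 in AAV-GP73 and from 511 to 1200 in AAV-V HFD, with 4 of 5 tested markers called higher in AAV-GP73. Periportal markers summed to 181 to 400 in AAV-V, 766 to 1299 in AAV-GP73 and 210 to 1035 in AAV-V HFD, and pericentral markers to 158 to 279, 368 to 854 and 219 to 426. These sums do not stand for whole lists. In AAV-GP73, 2 of 7 tested periportal markers were called higher and 0 lower, and 2 of 5 pericentral markers higher and 1 lower. Pck1 (3.39) and Oat (4.10) had the largest differences of their lists, and pericentral Slc1a2 was called lower (-1.42). In AAV-V HFD each list had 1 called higher and 1 lower. Of 3 tested stellate markers, Des was called lower in both comparisons (-2.33 and -2.66) and Dcn higher in AAV-GP73 (1.01). Reln was called lower in AAV-V HFD but was undetected both there and in AAV-V, so no fall was measured. The only tested endothelial marker, Clec4g, was undetected in AAV-V and called higher in AAV-GP73. None of 4 macrophage markers and not the 1 lymphocyte marker tested was called against AAV-V, and no cholangiocyte or adipocyte marker passed the detection filter. The part of these cells or of liver zones in the results below was not tested. In whole liver RNA, fewer cells of a type and less RNA per cell cannot be told apart. The Golm1 probe stayed below detection on all 9 arrays, and whether the virus carries its sequence is not given in the sources used here, so it does not check the labels.

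Of the 10 genes, 8 passed the filter of being detected on all arrays of at least 1 group. Adh1, Adh5, Aldh1a1 and Aldh2 were detected on all 9 arrays. Adh4, Aldh1a7 and Aldh9a1 were below detection on the 3 AAV-V arrays and detected on the 6 remaining ones, and Aldh3a2 on no AAV-V array, 3 AAV-GP73 arrays and 2 AAV-V HFD arrays. Aldh1b1 was detected on 1 array, AAV-V HFD replicate 3, and Aldh8a1 on 0 arrays.

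**Figure D1:**
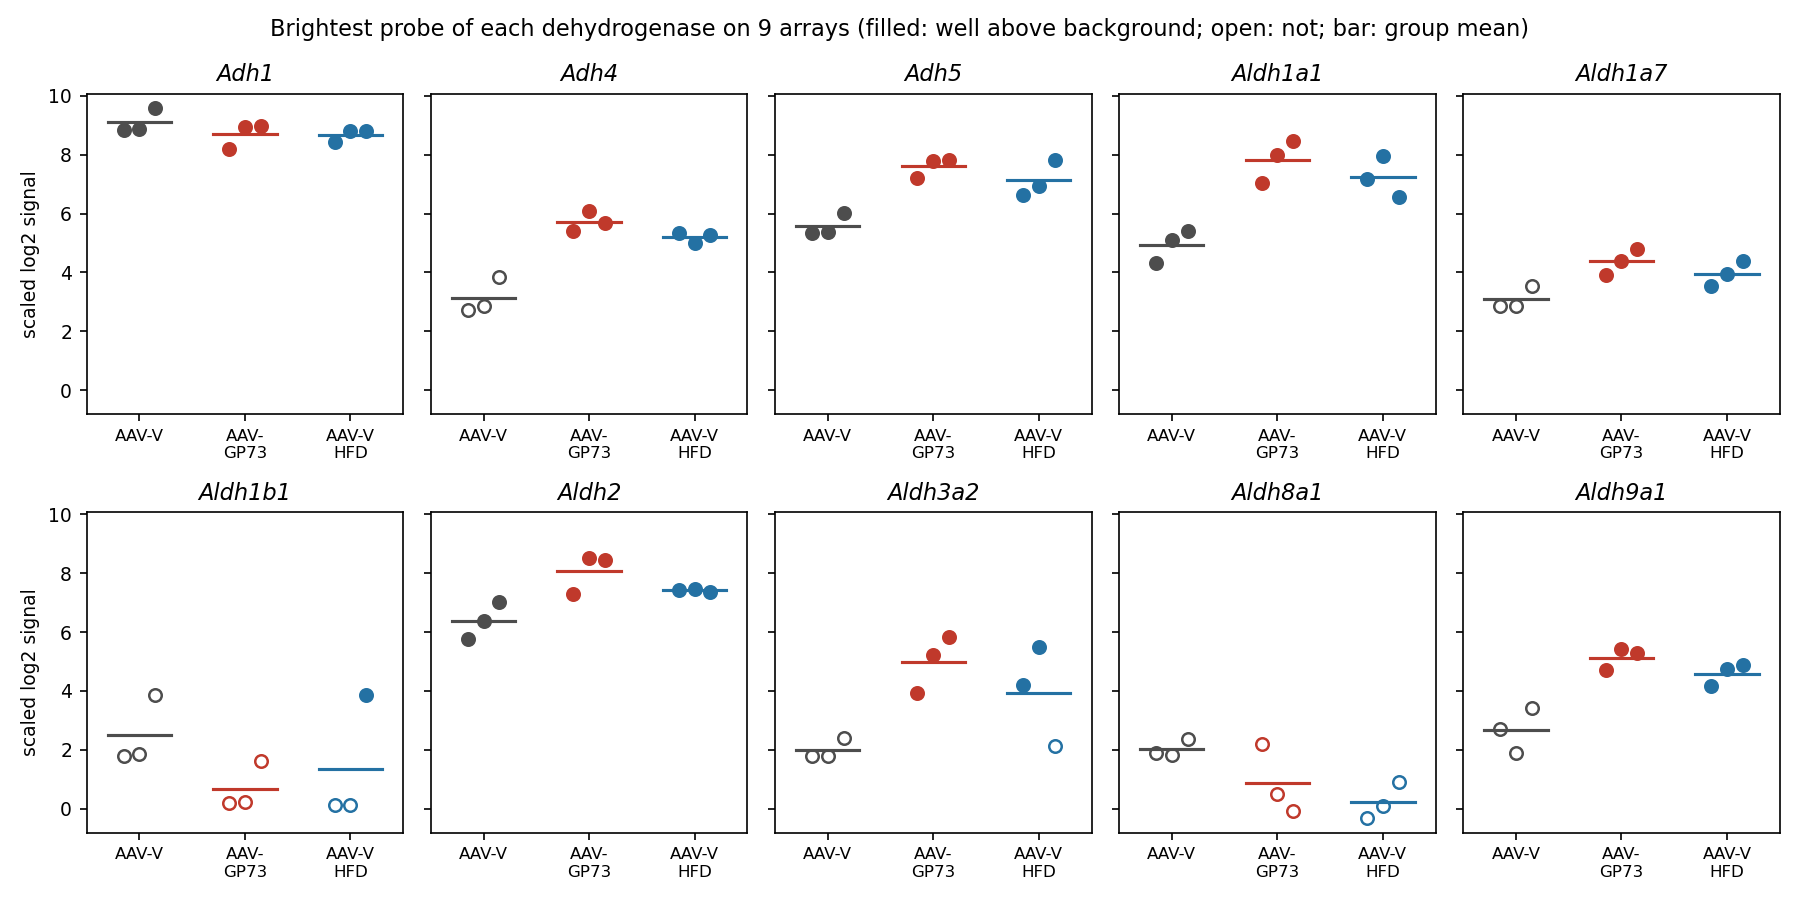
Scaled log2 signal (vertical axis) of the brightest probe of each of the 10 genes on every array of the 3 groups; filled points were well above background, open points were not, and bars are group means. In 7 genes every AAV-GP73 point lay above every AAV-V point, 4 of those genes had only open points in AAV-V, and the Adh1 points of AAV-GP73 overlapped those of AAV-V.

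Between AAV-GP73 and AAV-V, 7 of the 8 were called higher and 0 lower at the brightest probe (limma, fold change of at least 2 and adjusted p under 0.05 over 5763 genes). Dimmer upstream probes of Aldh2 (-1.05) and Adh1 (-1.28), detected on all 9 arrays, were called lower, and so they were for AAV-V HFD (-1.65 and -1.22). Over all 5763 genes the shares were 25.4% higher and 20.8% lower. Every AAV-GP73 array lay above every AAV-V array for the same count of 7 genes, as it did for 38.6% of all genes. For AAV-V HFD against AAV-V, 5 of the 8 were called higher and 0 lower, beside shares over all genes of 13.2% higher and 23.8% lower. Every AAV-V HFD array lay above every AAV-V array for 6 of them, as it did for 22.8% of all genes. Over the 4 genes detected on all 9 arrays, each at its brightest probe, the median difference was 1.86 for AAV-GP73 minus AAV-V and 1.29 for AAV-V HFD minus AAV-V. Over all 2429 genes so detected it was -0.38 and -0.71. The 8 genes had to be detected in some group to be counted, and their counts against AAV-V come from the contrasts on which they were selected. Both comparisons share the AAV-V arrays.

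Adh1, the class I alcohol dehydrogenase that carries out most ethanol oxidation in liver, did not share the higher level. Its brightest probe (mm9 chromosome 3:137952821-137952880, plus strand) read 8.85, 8.87 and 9.58 in AAV-V, 8.21, 8.93 and 8.96 in AAV-GP73, and 8.42, 8.81 and 8.79 in AAV-V HFD. AAV-GP73 overlapped AAV-V, and the 3 AAV-V HFD arrays lay just under the lowest AAV-V array. The log2 difference was -0.40 ± 0.33 (SE, n = 3 arrays a group) for AAV-GP73 minus AAV-V and -0.43 ± 0.33 for AAV-V HFD minus AAV-V. Its sign turned with the scaling, to 0.69 and 0.80 when arrays were aligned on the 75th percentile of all spots.

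Adh4, the class II enzyme that also oxidises retinol, lies on the same chromosome (mm9 chromosome 3:138093716-138093775, plus strand) and gave another picture. It read 2.72, 2.87 and 3.83 in AAV-V, all below detection, against 5.42, 6.08 and 5.68 in AAV-GP73 and 5.33, 5.00 and 5.29 in AAV-V HFD. No group overlapped another: AAV-V was lowest, AAV-V HFD came next and AAV-GP73 was highest. Against the detection limit of the AAV-V arrays, Adh4 was at least 3.22-fold higher in AAV-GP73 and at least 2.24-fold higher in AAV-V HFD. The fitted differences were 2.59 ± 0.35 and 2.06 ± 0.35.

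Adh5, the class III enzyme that removes formaldehyde bound to glutathione, was detected everywhere (brightest probe at mm9 chromosome 3:138118088-138118147, plus strand). It read 5.33, 5.37 and 6.03 in AAV-V, 7.23, 7.78 and 7.84 in AAV-GP73, and 6.63, 6.94 and 7.82 in AAV-V HFD. Both treated groups lay wholly above AAV-V and overlapped each other. The difference from AAV-V was 2.04 ± 0.37 in AAV-GP73, or 4.10-fold, and 1.55 ± 0.37 in AAV-V HFD, or 2.94-fold. The second Adh5 probe and the Adh1 probe on the minus strand were detected on 0 arrays.

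Aldh1a1, a cytosolic enzyme that turns retinal into retinoic acid, showed the largest difference among the 4 genes detected on all 9 arrays. Its probe (mm9 chromosome 19:20717764-20717823, plus strand) read 4.32, 5.09 and 5.39 in AAV-V, 7.02, 7.99 and 8.47 in AAV-GP73, and 7.16, 7.96 and 6.56 in AAV-V HFD. The lowest treated array stood above the highest AAV-V array. The difference was 2.89 ± 0.47 in AAV-GP73, or 7.43-fold, and 2.29 ± 0.47 in AAV-V HFD, or 4.90-fold.

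Aldh1a7, a rodent relative of Aldh1a1, was measured by a probe on the minus strand of the same chromosome (mm9 chromosome 19:20767553-20767612). It read 2.87, 2.87 and 3.55 in AAV-V, all below detection, 3.93, 4.40 and 4.80 in AAV-GP73, and 3.55, 3.95 and 4.38 in AAV-V HFD. AAV-GP73 stood clear of AAV-V, and the lowest AAV-V HFD array came close to the highest AAV-V array. The bound for AAV-GP73 was small, at least 1.26-fold, and the AAV-V HFD mean of 3.96 lay under the AAV-V detection limit, so no bound is given for it. The fitted differences were 1.28 ± 0.35 and 0.86 ± 0.35. Without AAV-GP73 replicate 3 the AAV-GP73 difference was 1.06 and was no longer called.

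The Aldh1a1 and Aldh1a7 probes share no run longer than 8 bases with each other. Whether either can bind the other gene's transcript was not tested. The last 30 bases of both probes are shown because the genes are close relatives.
Aldh1a1 probe: gtgactccttgaagtactcaccacacataa
Aldh1a7 probe: tgaaaagttagctgctctattcctcggggt

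Just before their transcription starts, in contrast, the pair hold a closely matching stretch. Over the last 110 bases before the start in the RefSeq promoter table (GRCm38.p6, the best matching of the Aldh1a1 starts), 6 positions differed and 94.5% were the same. This was the best matching stretch without a gap in the 250 bases before the start, so the search set its length and identity. The Aldh1a1 stretch is chr19:20601858-20601967 on the plus strand and the Aldh1a7 stretch chr19:20727557-20727666 on the minus strand. Both are printed because both genes read higher in AAV-GP73, and capitals mark the positions that differ.
Aldh1a1: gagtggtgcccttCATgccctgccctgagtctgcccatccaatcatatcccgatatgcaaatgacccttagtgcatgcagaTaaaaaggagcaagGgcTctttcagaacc
Aldh1a7: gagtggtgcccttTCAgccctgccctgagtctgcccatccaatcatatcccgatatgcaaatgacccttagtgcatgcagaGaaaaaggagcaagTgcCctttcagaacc
The table held promoters of 9 of the 10 genes, 11 in all. On either strand, AGGTCA, the half-site of many nuclear receptors, was found in Adh4 (2 matches) and in no other of them, and 16.3% of all 32851 promoters hold it. CACGTG, an E-box, was found in Adh1 and Aldh3a2, and 7.2% of all promoters hold it.

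Aldh2, the mitochondrial enzyme that oxidises most acetaldehyde, gave different answers at different probes. The brightest probe (mm9 chromosome 5:122017909-122017968, minus strand) read 5.76, 6.38 and 7.01 in AAV-V, 7.29, 8.51 and 8.43 in AAV-GP73, and 7.43, 7.46 and 7.36 in AAV-V HFD. All treated arrays were above all AAV-V arrays, with differences of 1.69 ± 0.40 and 1.03 ± 0.40. A neighbouring probe (122017680-122017739) pointed the same way, below detection in AAV-V at 2.77 to 3.98, and detected at 4.71 to 6.08 in AAV-GP73 and 4.85 to 5.07 in AAV-V HFD.

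Another Aldh2 probe, upstream in the transcript at 122022137-122022690, pointed the other way although it too was detected on all 9 arrays. It read 6.37, 6.54 and 7.36 in AAV-V, 5.17, 5.93 and 6.01 in AAV-GP73, and 5.10, 4.94 and 5.28 in AAV-V HFD. Here all AAV-V arrays were above all treated arrays, with differences of -1.05 ± 0.35 and -1.65 ± 0.35. The fourth probe was detected on 0 arrays. The upstream probe covers 554 bases of genome and so joins exons. Its fall turned to a rise of 0.82 for AAV-GP73 with spike-in scaling and was 0.04 when arrays were aligned on all spots. Both probes are shown because the gene's direction depends on which is read: the upstream probe whole, and the last 30 bases of the brightest probe.
Aldh2 upstream: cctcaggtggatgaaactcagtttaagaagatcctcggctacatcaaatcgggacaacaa
Aldh2 brightest: cgccacacacactgcgcctccaaagagaaa

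Adh1 showed a smaller split of the same kind. Its upstream probe (137943475-137945457), which also joins exons, read 6.64, 6.25 and 6.47 in AAV-V, 4.71, 5.39 and 5.42 in AAV-GP73, and 5.09, 5.26 and 5.36 in AAV-V HFD. All treated arrays were below all AAV-V arrays, by -1.28 ± 0.30 and -1.22 ± 0.30, where the brightest probe differed by -0.40 and -0.43. Across the 7 scalings the AAV-GP73 difference of the upstream probe ran from -1.47 to 0.60. The polyadenylation hexamer AATAAA lies near the end of that brightest probe, in capitals below.
Adh1 upstream: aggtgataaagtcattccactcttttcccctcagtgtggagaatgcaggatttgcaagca
Adh1 brightest: tttacctttcgagaaAATAAAtgaagcatt

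**Figure D2:**
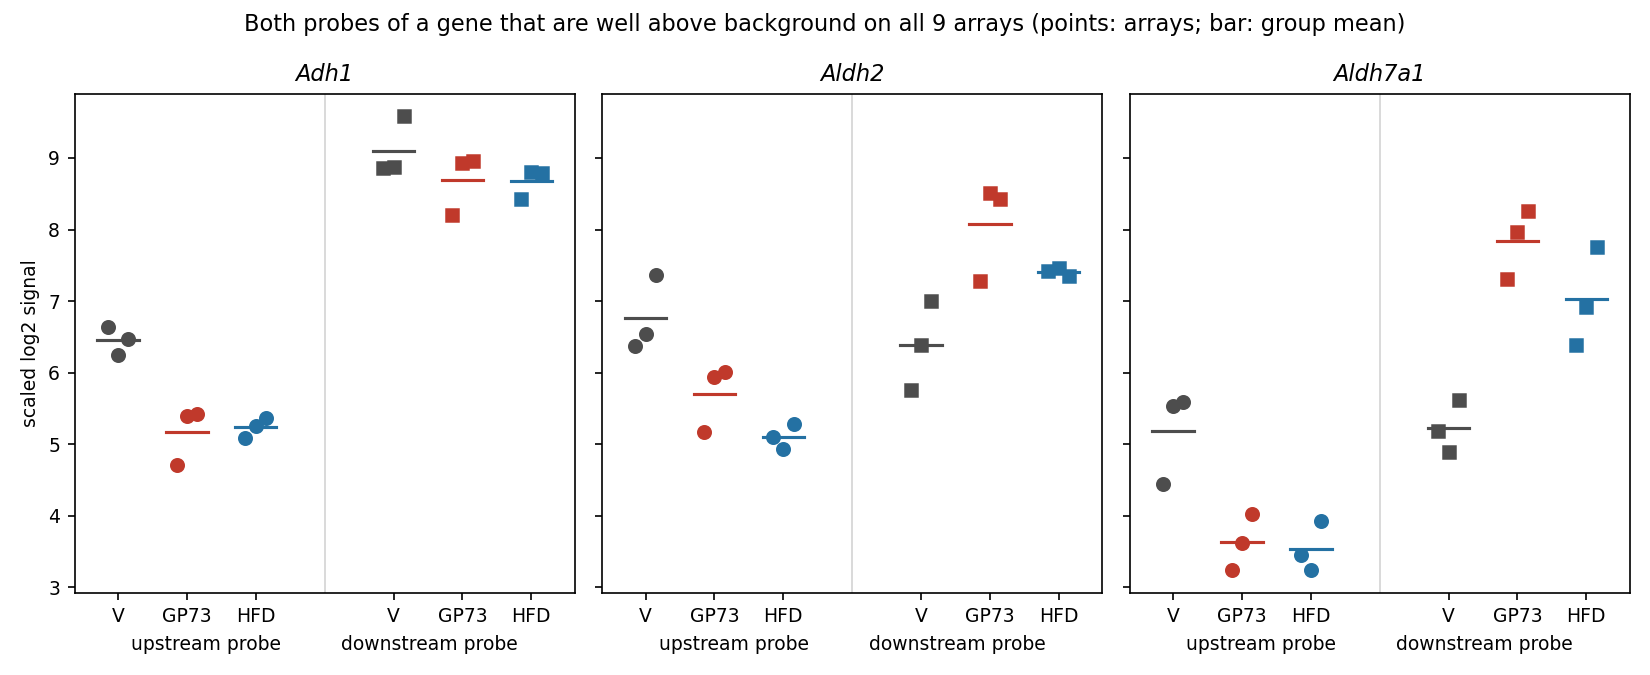
Scaled log2 signal on each array (points, with group means as bars) for the upstream and the downstream probe of Adh1, Aldh2 and Aldh7a1, all detected on all 9 arrays. In the scaling shown the upstream probe of each gene was lower in both treated groups, a sign that spike-in scaling turned, while the downstream probe was higher in Aldh2 and Aldh7a1 and differed little in Adh1.

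Such splits were not particular to these genes. Of all genes on the array, 164 had probes over 60 bases apart that were detected on all 9 arrays. For AAV-GP73 minus AAV-V the downstream probe gave the larger difference in 107 of them (65.2%), with a median gap of 0.17. For AAV-V HFD minus AAV-V it did so in 118 (72.0%), with a median gap of 0.19. Among the 126 genes whose probes lay over 300 bases apart the median gap was 0.32 in both comparisons, and among the 38 nearer pairs it was 0.01 and 0.05. The gap was 2.75 in Aldh2, 4.16 in Aldh7a1 and 0.88 in Adh1 for AAV-GP73 minus AAV-V, and 5 of the 164 genes had a gap at least as large as Aldh2, itself included. A gap between probes on the same arrays is not moved by shifting the arrays. What set the probes apart (transcript ends, RNA quality or labelling) was not tested. Adh4, Aldh1a1 and Aldh1a7 have a single probe each, so no second probe can be set beside theirs.

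**Figure D3:**
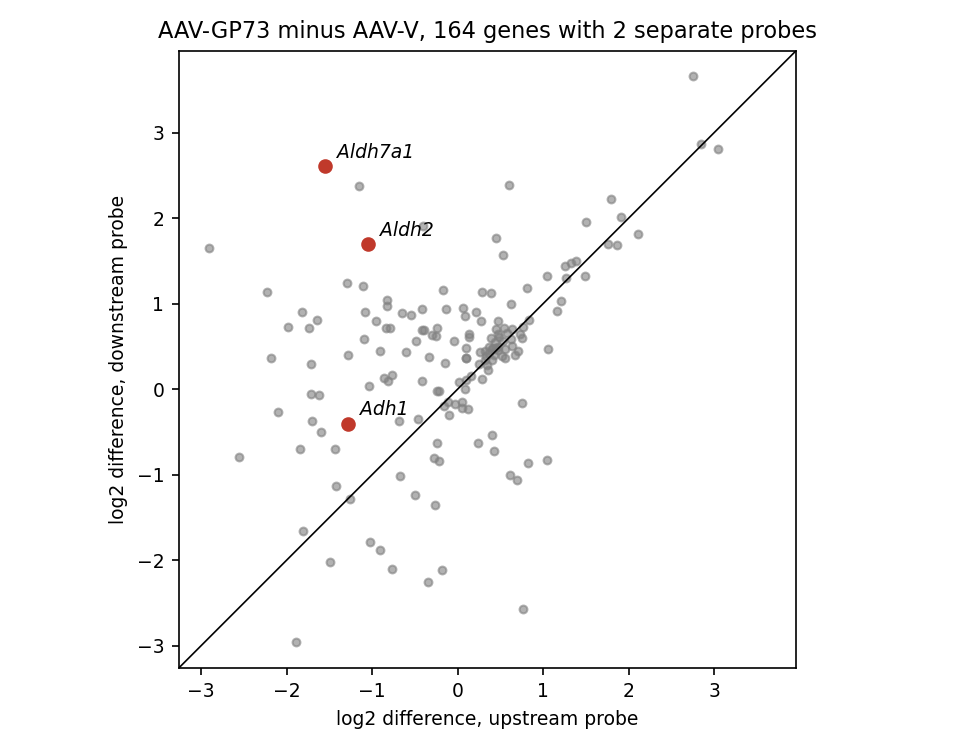
Log2 difference of AAV-GP73 minus AAV-V at the upstream probe (horizontal axis) and the downstream probe (vertical axis) of 164 genes with a pair of separate probes detected on all 9 arrays; points above the diagonal had the larger difference downstream. The named genes Adh1, Aldh2 and Aldh7a1 all lay above the diagonal, as did 65.2% of the genes.

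Aldh1b1, a second mitochondrial enzyme able to oxidise acetaldehyde, could not be compared. Its probe (mm9 chromosome 4:45816960-45817019, plus strand) was above background on AAV-V HFD replicate 3 alone, at 3.85.

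Aldh3a2, the fatty aldehyde dehydrogenase of endoplasmic reticulum and peroxisomes, was measured by 1 of its 4 probes (mm9 chromosome 11:61058399-61058458, minus strand). It read 1.80, 1.79 and 2.40 in AAV-V, all below detection, 3.92, 5.22 and 5.83 in AAV-GP73, and 4.20, 5.50 and 2.12 in AAV-V HFD. The third AAV-V HFD array was itself below detection and fell among the AAV-V values. Aldh3a2 was at least 1.93-fold higher in AAV-GP73 than in AAV-V, and the AAV-V HFD mean of 3.94 gave no bound. The fitted differences were 3.00 ± 0.72 and 1.95 ± 0.72. The AAV-V HFD difference ranged from 1.16 without AAV-V HFD replicate 2 to 2.86 without replicate 3, and of the fits that each left out 1 array only that without AAV-V HFD replicate 3 called it. Of the other Aldh3a2 probes, that at 61062365-61062424 was detected on 2 AAV-V HFD arrays and the rest on 0 arrays.

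Aldh9a1, which oxidises an aldehyde to butyrobetaine on the way to carnitine, was detected in both treated groups and not in AAV-V (brightest probe at mm9 chromosome 1:169298245-169298304, plus strand). It read 2.71, 1.89 and 3.41 in AAV-V, 4.70, 5.41 and 5.30 in AAV-GP73, and 4.17, 4.73 and 4.87 in AAV-V HFD. No treated array overlapped AAV-V. The bounds were at least 2.14-fold higher in AAV-GP73 and at least 1.46-fold higher in AAV-V HFD, and the fitted differences were 2.47 ± 0.40 and 1.92 ± 0.40. Its upstream probe was detected on 0 arrays.

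Aldh8a1, which acts in tryptophan breakdown through the kynurenine pathway, read between -0.32 and 2.38 at its probe (mm9 chromosome 10:21102134-21102193, plus strand), below detection on all 9 arrays.

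Between AAV-GP73 and AAV-V HFD, 0 of the 8 genes were called (limma, with 0 at an unadjusted p under 0.05), where 1.49% of all genes were called in either direction. Every gene had a higher mean in AAV-GP73, by 0.02 for Adh1 to 1.05 for Aldh3a2, beside a median of 0.25 over all genes. The 95% intervals all held 0 and were wide: -0.24 to 1.28 for Adh4, -0.42 to 1.62 for Aldh1a1, -0.22 to 1.54 for Aldh2 and -0.52 to 2.62 for Aldh3a2. For Adh5, Aldh1a1 and the brightest Aldh2 probe, all measured in AAV-V, the means ran from AAV-GP73 through AAV-V HFD down to AAV-V. Slide and group cannot be told apart in this comparison. Single arrays moved the genes together: AAV-V replicate 3 lay above its group mean in 8 of 8 genes and AAV-GP73 replicate 1 below it in 8 of 8.

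Other genes of the same families were listed by name alone, 18 in number, of which 17 were on the array and 8 were tested. For AAV-GP73 minus AAV-V, 6 were called higher and 2 lower, beside the shares of 25.4% and 20.8% over all genes. Of those called higher, Adhfe1, Aldh6a1 and Aldh16a1 were detected on 0 AAV-V arrays and passed the filter only through other groups. For AAV-V HFD minus AAV-V, 3 were higher and 2 lower, beside 13.2% and 23.8%. Aligned on all spots, AAV-GP73 had 6 higher and 1 lower, while AAV-V HFD had 6 and 0. With spike-in scaling they were 6 and 0 in both, so the lower calls hang on the scaling.

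**Figure D4:**
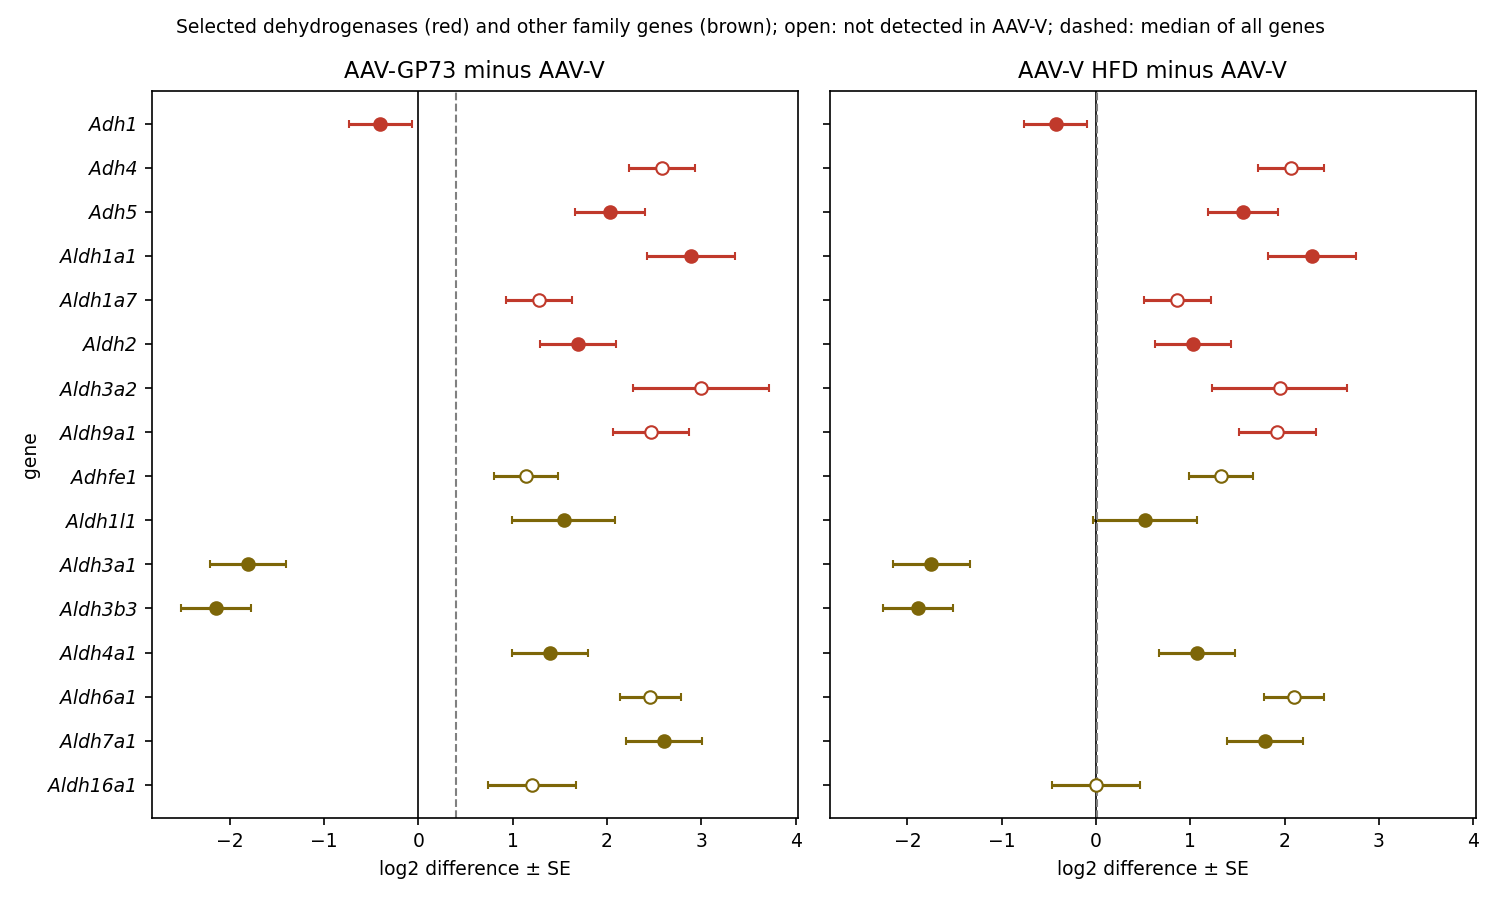
Log2 difference from AAV-V with its standard error (horizontal axis) for the 8 selected genes and the 8 other family genes, by AAV-GP73 (left) and AAV-V HFD (right); open points were not detected in AAV-V and the dashed line is the median of all genes, 0.40 and 0.01. Aldh3a1 and Aldh3b3 stood to the left of 0 in both comparisons, and Adh1 nearest to it among the selected genes.

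Aldh6a1, the methylmalonate semialdehyde dehydrogenase of valine breakdown, was below detection in AAV-V at 3.34, 3.43 and 3.72 and read 5.39, 6.23 and 6.26 in AAV-GP73 and 5.32, 5.64 and 5.83 in AAV-V HFD. It was at least 3.78-fold and at least 2.94-fold higher (limma adjusted p of 0.000301 and 0.00104). Aldh7a1, which acts in lysine breakdown, rose by 2.61 ± 0.40 and 1.79 ± 0.40 at its brightest probe (limma adjusted p of 0.000558 and 0.00497). At its upstream probe it differed by -1.55 ± 0.38 and -1.65 ± 0.38 (limma adjusted p of 0.00585 and 0.00612). Its 2 probes, like those of Aldh2, were called in opposite directions, although with spike-in scaling the upstream probe differed by 0.32 and 0.04 and was not called.

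Aldh4a1, of proline breakdown, rose by 1.40 ± 0.40 in AAV-GP73 (limma adjusted p = 0.0132) and differed by 1.07 ± 0.40 in AAV-V HFD (limma adjusted p = 0.0513). Aldh1l1, which oxidises formyl-tetrahydrofolate, rose by 1.54 ± 0.55 in AAV-GP73 (limma adjusted p = 0.0343). In AAV-V HFD it read 6.06, 6.56 and 8.65, with replicate 3 alone above the AAV-V range of 6.36 to 6.83. Adhfe1, an iron-containing hydroxyacid transhydrogenase, and Aldh16a1 were not detected in AAV-V. The Adhfe1 means, 3.84 for AAV-GP73 arrays and 4.03 for AAV-V HFD arrays, lay under the AAV-V detection limit of 4.04, so although the fit called it, no difference from AAV-V was measured. Aldh16a1 was at least 1.08-fold higher in AAV-GP73 (limma adjusted p = 0.0482), and its AAV-V HFD mean of 2.95 gave no bound.

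Aldh3a1, best known from the cornea, fell by 1.81 ± 0.40 in AAV-GP73 and by 1.75 ± 0.40 in AAV-V HFD (limma adjusted p of 0.00337 and 0.00582). It read 4.34, 4.47 and 5.50 in AAV-V, 3.13, 3.04 and 2.72 in AAV-GP73, and 2.75, 2.56 and 3.77 in AAV-V HFD. Aldh3b3 fell by 2.14 ± 0.37 and by 1.89 ± 0.37 (limma adjusted p of 0.000847 and 0.00267). When arrays were aligned on all spots, Aldh3a1 differed by -0.72 and -0.52 and Aldh3b3 by -1.05 and -0.66, and of these only the AAV-GP73 value of Aldh3b3 was still called. With spike-in scaling the AAV-GP73 differences were 0.07 and -0.27 and neither gene was called. Adh6a, Adh7, Aldh1a2, Aldh1a3, Aldh1l2, Aldh3b2 and Aldh18a1 were detected on 0 arrays, and Aldh3b1 and Aldh5a1 on 1 each.

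Genes that work beside these enzymes were counted from lists drawn up by function, with earlier results of these data known. Up to 2 called genes a list, those with the largest AAV-GP73 difference, are given with adjusted p-values. Picked in this way, they describe the lists and are no independent support for the selected genes. Each count stands beside the shares over all genes, 25.4% higher and 20.8% lower for AAV-GP73 minus AAV-V, and 13.2% and 23.8% for AAV-V HFD minus AAV-V. Redox shuttles that use the same cofactor NAD had 6 of 8 tested genes higher and 0 lower for AAV-GP73 minus AAV-V, and again 6 and 0 for AAV-V HFD minus AAV-V. Gpd1, of the glycerol phosphate shuttle, rose by 3.24 ± 0.45 and 2.48 ± 0.45, and lactate dehydrogenase Ldha by 3.03 ± 0.37 and 2.26 ± 0.37 (limma adjusted p of 0.000361 and 0.00199 for Gpd1, 0.000228 and 0.00127 for Ldha). Gpd1 was detected on 1 of the 3 AAV-V arrays. Of other routes for ethanol, AAV-GP73 had 2 of 2 tested genes higher and AAV-V HFD 1. Catalase, Cat, rose by 2.71 ± 0.37 and 1.88 ± 0.37 (limma adjusted p of 0.000342 and 0.00270), and Cyp2e1 by 1.47 ± 0.46 in AAV-GP73 (limma adjusted p = 0.0189).

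Among sources of fatty aldehydes, the substrates of Aldh3a2, both tested genes were called higher in both comparisons at the brightest probe. Hacl1 and Phyh act in alpha-oxidation of branched fatty acids. Hacl1 was not detected in AAV-V and was at least 13.5-fold higher in AAV-GP73 (limma adjusted p = 3.45e-05), and Phyh rose by 2.39 ± 0.33 (limma adjusted p = 0.000361). Of the kynurenine pathway, to which Aldh8a1 belongs, 4 of 6 tested genes were called higher and 0 lower in each comparison. Kmo, detected on 1 AAV-V array, differed by 2.24 ± 0.29 in AAV-GP73 (limma adjusted p = 0.000300). Qprt was detected on 0 AAV-V arrays and its AAV-GP73 mean lay under their detection limit, so no size is given for it. The AAV-V HFD calls included Qprt (mean 3.39) and Ido2 (mean 3.15), which was also detected on 0 AAV-V arrays. Both means lay under that limit, so no rise was measured for them. Of carnitine synthesis, the path of Aldh9a1, the only tested gene Bbox1 was at least 1.09-fold higher in AAV-GP73 (limma adjusted p = 0.0104) and not called in AAV-V HFD.

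Enzymes that reduce or oxidise aldehydes by other chemistry had 9 of 15 tested genes called higher and 1 lower in AAV-GP73, against 6 and 0 for the high fat diet. Of those called higher in AAV-GP73, Akr1c13, Akr1c14, Akr1c19, Akr1c20, Akr7a5 and Aox1 were detected on 0 AAV-V arrays. They passed the filter only through other groups. The AAV-GP73 means of Akr1c14, Akr7a5 and Aox1 lay under the AAV-V detection limit, so no rise was measured for them. Akr1c6, an aldo-keto reductase, rose by 1.93 ± 0.36 (limma adjusted p = 0.00130), and Akr1c20 was at least 2.87-fold higher (limma adjusted p = 0.00109). Akr1c genes are near copies of each other, so a probe may bind more than its own transcript. Retinoid genes share substrates with Adh4 and Aldh1a1, and of 8 tested 1 rose and 1 fell in AAV-GP73, against 0 and 1 in AAV-V HFD. Dhrs3, which turns retinal back into retinol, was at least 1.84-fold higher in AAV-GP73 (limma adjusted p = 0.00546). Rdh12, a retinol dehydrogenase, fell by 1.86 ± 0.42 (limma adjusted p = 0.00341), a difference that was 0.02 with spike-in scaling. Among 10 tested housekeeping genes, 4 rose and 1 fell in AAV-GP73, against 3 and 2 in AAV-V HFD. Aligned on all spots, 6 retinoid and 6 housekeeping genes rose in AAV-GP73 with 0 falling, and the high fat diet gave 5 and 7 rising with 0 falling.

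The level at which arrays were aligned moved every difference from AAV-V. When the 75th percentile was taken over all spots, the median of all genes moved up by 1.09 for AAV-GP73 minus AAV-V and by 1.23 for AAV-V HFD minus AAV-V. Then 62.3% and 54.8% of all genes were called higher, with 7 of the 8 genes called higher in each comparison. The share of higher genes among all those called moved from 55.1% to 88.4% for AAV-GP73 and from 35.6% to 93.4% for AAV-V HFD. Relative to the median of all genes, the AAV-GP73 difference was 2.49 for Aldh1a1, 1.63 for Adh5, 1.29 for Aldh2 and -0.81 for Adh1 in the scaling used here. With normexp background correction and an offset of 50, the differences of Adh4, Aldh1a7, Aldh3a2 and Aldh9a1 turned negative, between -0.51 and -0.04 for AAV-GP73. The offset exceeds the median signal of spots detected on all arrays in AAV-V, which was 36.4 to 41.8, and its part in these signs was not tested. Aldh1a1 and Aldh2 stayed called higher in AAV-GP73 in all 7 scalings, with differences of 1.29 to 4.77 and 1.08 to 3.57 at the brightest probe.

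**Figure D5:**
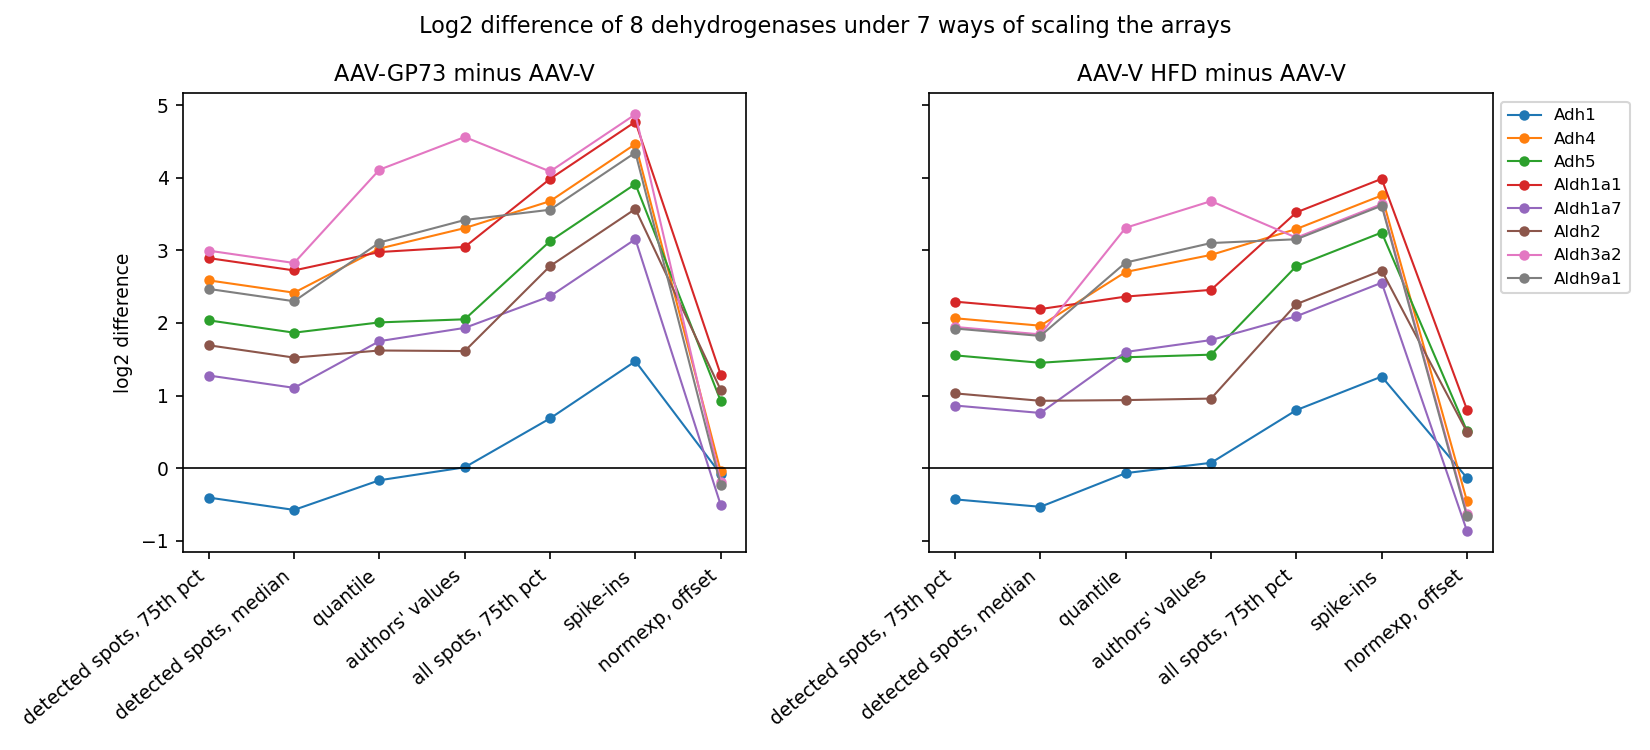
Log2 difference of the 8 genes (lines) from AAV-V under 7 ways of scaling or background correction (horizontal axis), AAV-GP73 at left and AAV-V HFD at right. Adh1 crossed 0 between scalings, the 4 genes not detected in AAV-V fell below 0 with the normexp offset, and Adh5, Aldh1a1 and Aldh2 stayed above 0 throughout.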

How the data were processed

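Mouse liver RNA was hybridised to 9 Agilent 1-colour arrays. The deposited scanner files hold intensity per spot (Agilent Feature Extraction 12.0.3.1 per the file headers, 10.7 in the submitters' processing notes), with probe positions on mm9. The authors' deposited table holds log2 values, processed by the authors with limma, with matching top values in all columns. It served as an alternative. From the files, log2 of the processed signal was taken, control and outlier spots were left out, and each array was shifted to a common 75th percentile over the 4864 spots detected on all 9 arrays, because fewer spots were detected than not (at most 18.4% on any array). Spots of a probe were averaged and the brightest probe stood for a gene. Genes detected throughout at least 1 group were fitted with limma 3.58.1 in R 4.3.3 over all 3 groups without a block. Calls needed a 2-fold difference and an adjusted p (Benjamini-Hochberg, all 5763 genes) under 0.05. An undetected group was bounded by the lowest detected signal of its arrays or the probe's own value, whichever was higher. With 3 arrays against 3, an exact permutation test cannot go below 0.1, and precision is limited by the number of arrays. No saturated spots were found. Replicates correlated at 0.937 to 0.981 across genes and no 2 were alike. All 15 member probes with a RefSeq accession carried the same symbol in the RefSeq table. Named beside the members were every tested gene of both families, up to 2 called genes a functional list with the largest AAV-GP73 difference, hepatocyte markers and Golm1. Some list genes not detected in AAV-V were named as well. The members and lists were chosen with earlier results of these data known. The fit was tested on simulated data.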

Additional observations from a re-analysis of the deposited data

How the results depend on the processing

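The dim AAV-V arrays set the main limit, since genes below detection there have bounds only. For AAV-GP73 minus AAV-V, AAV-V HFD minus AAV-V and AAV-GP73 minus AAV-V HFD, 7, 5 and 0 of the selected genes were called and 8, 5 and 0 of the other family genes. In AAV-GP73 minus AAV-V, 32 genes of the functional lists were called, and 10 probes of the selected genes, 8 higher and 2 lower. Of the alternatives' counts, 141 stayed within 1.5 times and 26 did not. Normexp correction left 2 and 0 selected genes against AAV-V, 4 and 3 other family genes, 10 list genes and 2 probes. It turned the AAV-GP73 difference to -0.044 for Adh4, -0.51 for Aldh1a7, -0.18 for Aldh3a2 and -0.23 for Aldh9a1, and the AAV-V HFD difference to -0.45, -0.86, -0.63 and -0.66 in that order. Its offset of 50 exceeds the median signal of spots detected on all arrays, which was 41.0 on the middle AAV-V array. Requiring detection on all 9 arrays, which removes genes, left 3 and 3 selected genes, 5 other family genes for AAV-GP73, 15 list genes and 5 probes. Without a filter on dim probes, 16 and 13 other family genes, 58 list genes and 18 probes were called, with more genes entering. Spike-in scaling called 8 selected genes for AAV-V HFD, where it called 3774 of all 5763 genes higher and 73 lower. It called 49 list genes for AAV-GP73, where it called 4382 of all genes higher and 84 lower. Between AAV-GP73 and AAV-V HFD it called 1 other family gene, beside 289 of all genes higher and 15 lower. Median scaling called 5 other family genes for AAV-GP73, beside 1150 of all genes higher and 1327 lower. The t-test that the study's legends name, with adjustment, called 5 other family genes for AAV-GP73, and 0 selected and 1 other family gene for AAV-V HFD. The cause was not tested for any of these settings. For the normexp, filter, t-test and probe counts no share over all genes or probes is given here, so they are descriptions only. Adh1 turned sign: for AAV-GP73 to 0.69 (all spots), 1.47 (spike-in) and 0.013 (the authors' values), and for AAV-V HFD to 0.80, 1.26 and 0.075. Its difference between AAV-GP73 and AAV-V HFD, 0.02, became -0.11 with all spots, -0.043 with the median, -0.10 with quantile normalization, -0.062 with the authors' values and -0.020 with the mean of probes. The cause was not tested. The share of higher genes among those called ran from 46.4% (median) to 98.1% (spike-in) for AAV-GP73 and from 29.9% to 98.1% for AAV-V HFD. Leaving out 1 array at a time gave 6 to 7, 4 to 6 and 0 selected genes, 4 to 7, 5 and 0 to 1 other family genes, 26 to 36 list genes, 9 to 10 probes, and -0.11 to 0.27 for Adh1 between AAV-GP73 and AAV-V HFD. The count of other family genes for AAV-GP73 was 5 without AAV-V replicate 2, 5 without AAV-GP73 replicate 2 and 4 without AAV-GP73 replicate 3, and the 1 between AAV-GP73 and AAV-V HFD came without AAV-V HFD replicate 3. For AAV-V HFD, Aldh1a7 became called without AAV-V replicate 3 (1.09) or AAV-V HFD replicate 1 (1.07), and Aldh2 without AAV-V replicate 3 (1.34). Same-numbered arrays deviated together (r over 0.1) in 2 of 9 pairs, from -0.12 to 0.17. With 3 arrays a group this cannot exclude that the numbers pair the samples, and the main fit used no pairing. A replicate block called 7, 5 and 0 selected genes and 8, 6 and 0 other family genes, with Aldh2 gained at 1.03 and Aldh3a2 lost at 1.95 for AAV-V HFD.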
